A study of Homo sapiens with 12 samples.

Results

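The phosphoinositide 3-kinase (PI3K), AKT, SGK and mTOR pathway was followed through 38 genes, taken by gene symbol from the count tables of both cell lines out of 38434 named genes. The rule is a list of gene symbols with no threshold on a measured value, though the list was drawn up with earlier results of these data known. They comprise 4 catalytic and 3 regulatory subunits of class I PI3K, 4 phosphatases, 6 kinases of the PDK1, AKT and SGK families, TSC1, TSC2 and RHEB, 6 genes of the mTOR complexes, 3 genes of the GATOR1 complex, 4 genes of the Rag and Ragulator complexes, 2 S6 kinases and 3 FOXO transcription factors. All 38 were present in both tables.

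Strand-specific mRNA-seq was performed in RERF-LC-AI and LK-2, human cell lines labelled as lung squamous cell carcinoma (LUSC). LC-AI-maspin and LK2-maspin cells stably carried a lentiviral vector for maspin (gene SERPINB5) with the green fluorescent protein ZsGreen, and LC-AI-ctrl and LK2-ctrl cells carried ZsGreen alone. All 4 groups were thus infected, blasticidin-selected cells, each a pool of the surviving clones, and each had 3 libraries. RERF-LC-AI cells were kept in Eagle's minimum essential medium and LK-2 cells in RPMI1640, so a difference between the lines cannot be told apart from one between the media. The sources used here do not say if the libraries of a group are separate cultures, and p-values then measure only the spread between these libraries, which may be technical.

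Class I PI3K phosphorylates the membrane lipid PIP2 to PIP3, which recruits the kinases PDK1 and AKT to the membrane. AKT and the related SGK kinases phosphorylate many proteins, among them the FOXO factors, which then leave the nucleus, and the TSC1-TSC2 complex, which otherwise keeps the small GTPase RHEB and with it the mTORC1 kinase complex inactive. Amino acids act on mTORC1 by another branch, in which the Rag GTPases, held at the lysosome by Ragulator, are opposed by GATOR1. PIK3CA, on the long arm of chromosome 3, is often amplified in LUSC. Most of this signalling is by phosphorylation, which transcript counts do not measure.

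Levels are given as CPM, read counts scaled to the TMM-normalised library size within each cell line. Only the cell type markers, wherever given, have CPM scaled over all 12 libraries together. A change is the log2 ratio of maspin to ctrl cells with its standard error (SE), tested with edgeR's quasi-likelihood F test, and p-values are Benjamini-Hochberg adjusted over all genes tested, with 0.05 as the threshold. In RERF-LC-AI cells all 38 members were tested, and in LK-2 cells 37, since SGK2 had too few reads (1 to 12 per library). Total counts were 50143577 to 65454432 in RERF-LC-AI and 39802246 to 54941357 in LK-2 libraries, and the biological coefficient of variation was 6.43% and 11.7%. SERPINB5 itself had 513, 480 and 438 CPM in LC-AI-maspin against 0.271, 0.143 and 0.201 CPM in LC-AI-ctrl, and 50.9, 50.7 and 48.4 CPM in LK2-maspin against 2.02, 2.01 and 1.87 CPM in LK2-ctrl, as the labels say. Of 12 squamous markers, 5 averaged at least 1 CPM in both RERF-LC-AI groups. The highest were PITX1 (12.5 CPM in LC-AI-maspin, 14.3 CPM in LC-AI-ctrl), S100A2 (11.6 and 13.2 CPM) and PKP1 (8.04 and 8.98 CPM). The lineage factors SOX2 (0.249 CPM in LC-AI-maspin, 0.39 CPM in LC-AI-ctrl) and TP63 (0.771 and 0.641 CPM) were low there, and the basal keratin KRT5 (0.0867 and 0.0426 CPM) was near 0. In LK-2 cells 7 of the 12 markers averaged at least 1 CPM in LK2-maspin and 6 in LK2-ctrl. SOX2 averaged 398 CPM in LK2-maspin and 500.0 CPM in LK2-ctrl, with TP63 at 1.06 and 1.18 CPM. S100A2 (0.743 and 0.705 CPM) and PKP1 (0.323 and 0.319 CPM) were low in this line. These are bulk samples, in which fewer expressing cells and less RNA per cell cannot be told apart.

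SGK1, INPP5D and FOXO1 are the 3 members whose maspin effect differed between the cell lines, and the 250 bases before their annotated starts are shown for that reason. SGK1 encodes the serum- and glucocorticoid-regulated kinase, INPP5D the PIP3 5-phosphatase SHIP1, and FOXO1 a forkhead transcription factor. The sequences are from RefSeq (GRCh38.p14), which gives 3 starts for SGK1 and 1 each for the others. Capitals mark TATAAA, the core of the TATA box, or its reverse complement.
SGK1, chr6:134318113-134318362, minus strand: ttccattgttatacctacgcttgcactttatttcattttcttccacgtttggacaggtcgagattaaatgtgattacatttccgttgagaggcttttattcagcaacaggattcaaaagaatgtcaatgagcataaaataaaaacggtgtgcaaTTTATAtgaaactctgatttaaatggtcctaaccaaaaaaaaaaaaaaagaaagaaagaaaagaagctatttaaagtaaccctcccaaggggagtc
SGK1, chr6:134177862-134178111, minus strand: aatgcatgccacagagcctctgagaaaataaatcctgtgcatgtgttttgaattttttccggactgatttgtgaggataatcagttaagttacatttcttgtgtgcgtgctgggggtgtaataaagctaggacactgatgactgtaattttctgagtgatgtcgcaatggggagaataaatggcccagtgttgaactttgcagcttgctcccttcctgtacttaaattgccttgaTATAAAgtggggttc
SGK1, chr6:134174867-134175116, minus strand: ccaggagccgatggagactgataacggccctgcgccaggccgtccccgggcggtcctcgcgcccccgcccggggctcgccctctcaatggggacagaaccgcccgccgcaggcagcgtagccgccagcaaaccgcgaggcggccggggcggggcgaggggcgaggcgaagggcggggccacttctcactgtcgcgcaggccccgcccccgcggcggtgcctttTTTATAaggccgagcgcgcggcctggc
INPP5D, chr2:233060092-233060341, plus strand: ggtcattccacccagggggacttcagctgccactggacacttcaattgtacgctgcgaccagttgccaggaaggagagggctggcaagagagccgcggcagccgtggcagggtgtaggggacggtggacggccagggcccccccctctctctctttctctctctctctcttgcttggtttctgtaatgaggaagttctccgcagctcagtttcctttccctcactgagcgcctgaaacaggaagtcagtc
FOXO1, chr13:40666642-40666891, minus strand: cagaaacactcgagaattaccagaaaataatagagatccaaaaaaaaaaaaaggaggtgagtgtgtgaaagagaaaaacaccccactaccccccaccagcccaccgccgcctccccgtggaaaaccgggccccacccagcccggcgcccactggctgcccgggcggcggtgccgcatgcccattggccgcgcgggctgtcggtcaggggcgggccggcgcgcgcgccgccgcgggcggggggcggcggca

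The 3 SGK1 windows held 1 match each to TATAAA or its reverse complement, and those of INPP5D and FOXO1 held none. Of 35116 RefSeq windows of the same length, 10.7% had a match. The GC content of the SGK1 windows was 33.6%, 41.6% and 76.0%, against 59.2% for INPP5D and 67.2% for FOXO1. The counts are per gene and do not tell which SGK1 start was used. Of the 38 members, 31 had a window in the table (57 windows, median GC content 62.0% against 58.0% for all windows). On both strands, the forkhead motif TGTTTAC was found in 1 member, PIK3CA (2.98% of all windows), and TCACGTGA, a motif of lysosomal genes, in 1 member, TSC2 (0.854%). TGANTCA, bound by AP-1, was found in 3 members (6.57%), and the cAMP response element TGACGTCA (1.65%) in none. A match is a description of these letters and not of binding.

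In RERF-LC-AI cells 8 of 38 members (21.1%) passed the test, and the largest changes were falls. PIK3CB and NPRL3 were higher in LC-AI-maspin (background of genes higher 4.01%), and SGK1, INPP5D, FOXO1, LAMTOR1, TSC1 and SGK3 were lower (background of genes lower 6.53%). All genes together had 10.5% called in either direction. The members are mostly well-expressed genes, and among genes with a mean of at least 10 CPM 21.4% were called, against 7 of 31 members (22.6%), so that the members' share was near that of genes with similar levels. The median log2 fold change was 0.00 over the members and 0.01 over all genes tested, and the absolute log2 fold change of the 30 members that did not pass had a median of 0.10. By level, 4 members lay above in all LC-AI-maspin libraries (background 11.9%), 9 lay below (background 13.2%), and 25 overlapped. With upper-quartile factors or library size only, the calls over all genes were 1305 higher and 1388 lower or 1408 and 1287, against 1010 and 1645 with TMM factors, while the 8 members kept their calls and directions. When the replicate number shared by maspin and ctrl libraries was added as a block, 4 members were higher and 11 lower (background 16.2% in either direction). This background is of all genes, and no share among genes with a mean of at least 10 CPM was determined for any fit with the block.

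**Figure D1:**
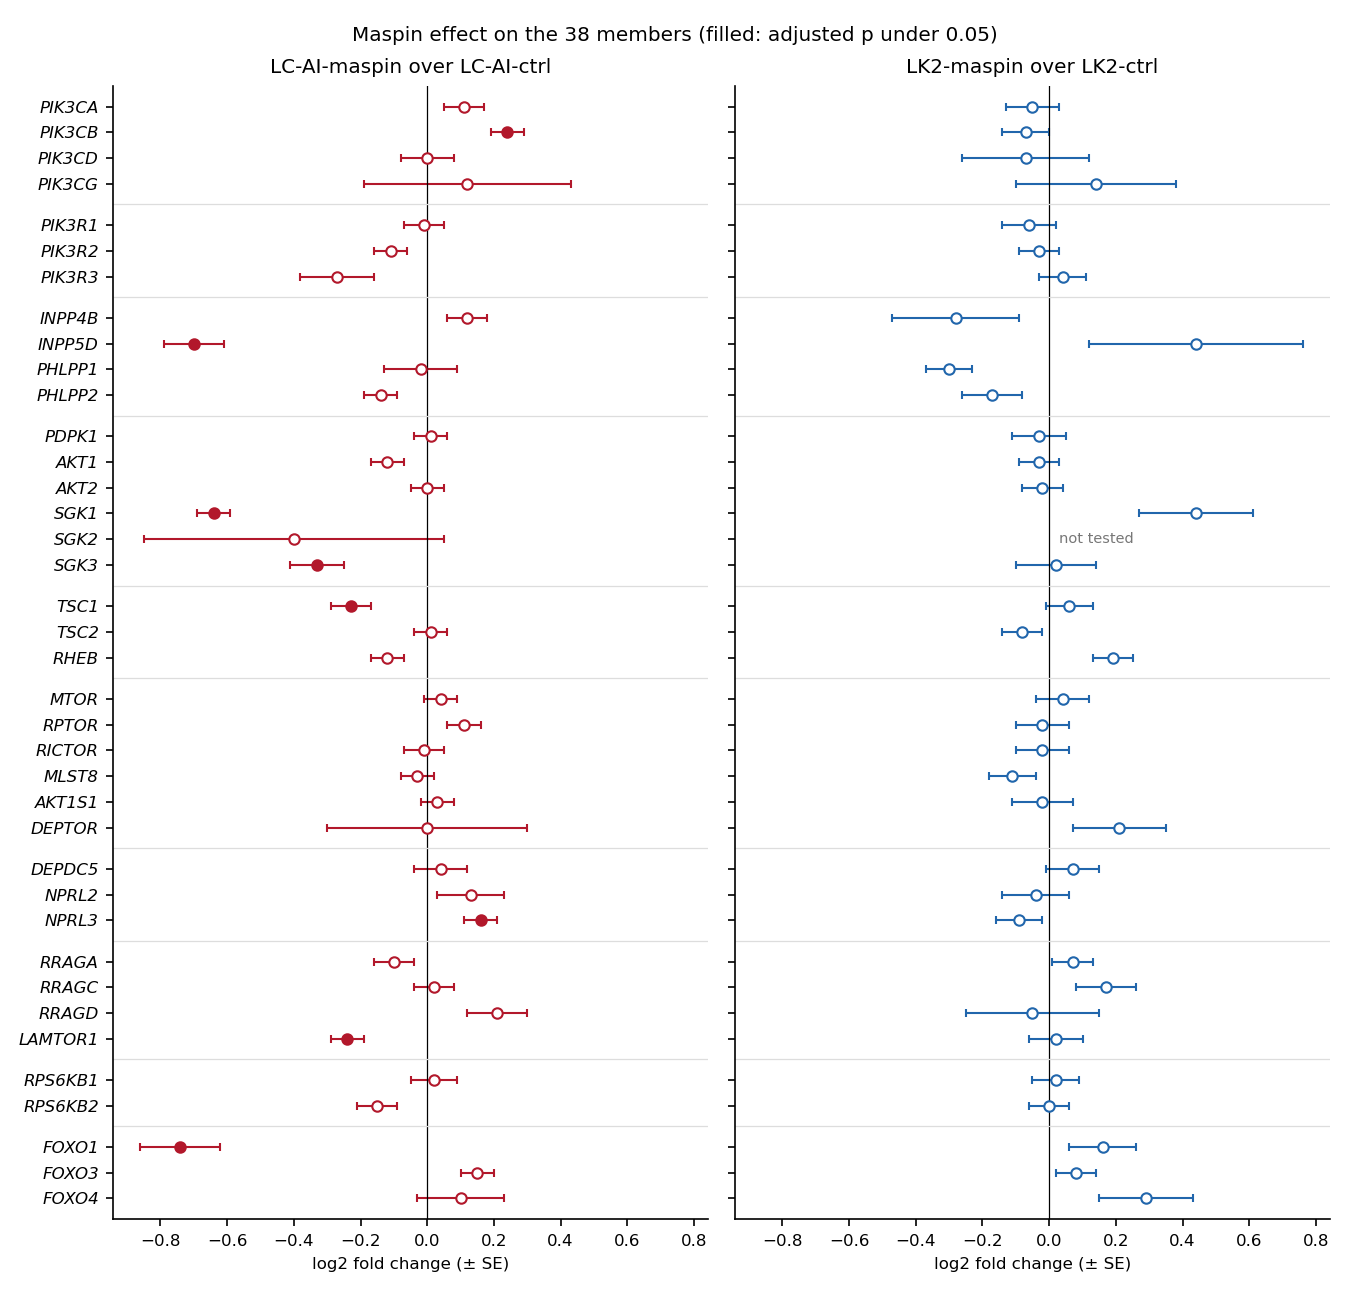
Maspin effect as log2 fold change (x axis, ± SE) for the members in the order of their roles (y axis), in RERF-LC-AI cells on the left and LK-2 cells on the right, with filled points for an adjusted p under 0.05. The 8 filled points are all in RERF-LC-AI cells, from -0.74 for FOXO1 to 0.24 for PIK3CB.

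Of the class I PI3K subunits, PIK3CB passed the test in RERF-LC-AI cells. It encodes the catalytic subunit p110-beta, which G protein-coupled receptors can also activate, and lies on chromosome 3 from 138652698 to 138834928 (GRCh38). Its levels were 91.8, 95.0 and 91.7 CPM in LC-AI-maspin, against 77.6, 75.4 and 82.1 CPM in LC-AI-ctrl, with no overlap (log2 fold change 0.24, SE 0.05, adjusted p = 8.2e-04). In LK-2 cells PIK3CB had 44.5, 47.2 and 44.5 CPM in LK2-maspin and 49.7, 47.3 and 45.5 CPM in LK2-ctrl, where the groups overlapped.

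The other catalytic subunits gave smaller or less certain differences. PIK3CA, p110-alpha, averaged 46.4 ± 0.536 CPM in LC-AI-maspin and 43.0 ± 2.39 CPM in LC-AI-ctrl (SD, n = 3 each; log2 fold change 0.11, adjusted p = 0.265). PIK3CD, p110-delta, best known in leukocytes, averaged 14.9 CPM in both groups of the line, and PIK3CG, p110-gamma, was near the limit of detection at 0.606 ± 0.0592 CPM in LC-AI-maspin and 0.555 ± 0.103 CPM in LC-AI-ctrl (22 to 43 reads per library). None of the regulatory subunits passed the test in the fit without the block. PIK3R3, which encodes p55-gamma, had 9.06, 12 and 11.4 CPM in LC-AI-maspin and 10.8, 14.4 and 14.2 CPM in LC-AI-ctrl, each maspin library below the ctrl library of the same number. Its log2 fold change was -0.27 (SE 0.11, adjusted p = 0.116), and it was called with the replicate block (adjusted p = 0.00894), with no filter on low counts (0.044) and without LC-AI-ctrl replicate 1 (0.00688).

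INPP5D fell in LC-AI-maspin cells. It is best known as the PIP3 phosphatase of blood cells and lies on chromosome 2 from 233059967 to 233207903. Its levels were 8.81, 8.05 and 9.03 CPM in LC-AI-maspin, against 15.4, 12.7 and 14.1 CPM in LC-AI-ctrl, so that no library of one group reached the other. The change was -0.70 on the log2 scale (SE 0.09, adjusted p = 3.03e-06), and it stayed called in all 16 alternatives, with adjusted p from 1.37e-11 to 7.43e-04. Of the leukocyte markers, PTPRC averaged 0.596 CPM in LC-AI-maspin and 0.265 CPM in LC-AI-ctrl, and CD68 averaged 44.4 and 47.0 CPM. In LK-2 cells INPP5D was scarce, with 26 to 32 reads per library in LK2-maspin and 20 to 24 in LK2-ctrl. These are 0.523, 0.659 and 0.687 CPM in LK2-maspin against 0.420, 0.443 and 0.511 CPM in LK2-ctrl (log2 fold change 0.44, SE 0.32, adjusted p = 0.972).

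The other phosphatases of the set did not pass in RERF-LC-AI cells. INPP4B, which removes the 4-phosphate from PI(3,4)P2, averaged 52.7 ± 2.15 CPM in LC-AI-maspin and 48.6 ± 4.34 CPM in LC-AI-ctrl (SD, n = 3 each). PHLPP2, which like PHLPP1 dephosphorylates AKT, was below in all LC-AI-maspin libraries, at 38.8, 38.7 and 39.3 CPM, against 41.7, 44.8 and 42.6 CPM in LC-AI-ctrl. Its log2 fold change was -0.14 (SE 0.05, adjusted p = 0.0997, with the block 0.0299). PHLPP1 averaged 6.56 ± 0.674 CPM in LC-AI-maspin and 6.67 ± 0.350 CPM in LC-AI-ctrl (SD, n = 3 each).

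SGK1 and SGK3 fell in LC-AI-maspin cells, while the kinase upstream of them did not pass the test. SGK1, transcribed in response to serum and glucocorticoid, is on chromosome 6 from 134169248 to 134318112. It had 50.1, 50.6 and 47.8 CPM in LC-AI-maspin, against 71.9, 79.0 and 80.2 CPM in LC-AI-ctrl. The highest maspin library lay well below the lowest ctrl library, which gave a log2 change of -0.64 (SE 0.05, adjusted p = 1.09e-09). It passed in all 16 alternatives, with adjusted p of at most 1.2e-05. SGK3, which carries a lipid-binding PX domain and acts at endosomes, had 12.8, 12.2 and 13.4 CPM in LC-AI-maspin, against 14.4, 16.8 and 16.8 CPM in LC-AI-ctrl. Its log2 fold change, -0.33 (SE 0.08, adjusted p = 0.00826), no longer passed without LC-AI-maspin replicate 2 (adjusted p = 0.0644), without LC-AI-ctrl replicate 3 (0.0667) or with all 12 libraries in 1 fit (0.0946). A read-through transcript with C8orf44 shares its sequence with SGK3 and was counted on its own line, with 217 to 338 reads per RERF-LC-AI library, so that reads could be split between them.

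SGK2 was near the limit of detection, with 12 to 20 reads per library in LC-AI-maspin and 9 to 27 in LC-AI-ctrl. AKT1 had 168, 184 and 173 CPM in LC-AI-maspin, against 188, 195 and 190 CPM in LC-AI-ctrl, without overlap. The adjusted p was 0.101, with the block 0.00598, for a log2 fold change of -0.12 (SE 0.05). AKT2 averaged 127 CPM in both groups. PDPK1, which encodes PDK1, averaged 76.3 ± 0.962 CPM in LC-AI-maspin and 75.8 ± 2.60 CPM in LC-AI-ctrl (SD, n = 3 each).

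Within the TSC complex the 2 subunits gave different results in RERF-LC-AI cells. TSC1, or hamartin, on chromosome 9 from 132891348 to 132946874, had 44.4, 43.4 and 42.9 CPM in LC-AI-maspin, against 53.4, 47.5 and 52.5 CPM in LC-AI-ctrl. This was a change of -0.23 on the log2 scale (SE 0.06, adjusted p = 0.00522), and the call was lost without LC-AI-ctrl replicate 3 (0.0518) and with all 12 libraries in 1 fit (0.061). TSC2, the subunit with GTPase-activating function towards RHEB, averaged 82.6 ± 0.263 CPM in LC-AI-maspin and 81.9 ± 1.51 CPM in LC-AI-ctrl (SD, n = 3 each; log2 fold change 0.01, SE 0.05). Whether the changes of TSC1 and TSC2 differ from each other was not tested. RHEB had 136, 144 and 143 CPM in LC-AI-maspin, below the 150, 155 and 154 CPM in LC-AI-ctrl in every library (log2 fold change -0.12, SE 0.05, adjusted p = 0.119, with the block 0.0118).

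None of the 6 mTOR complex genes passed in either line, with or without the block. In RERF-LC-AI cells their log2 fold changes ran from -0.03 for MLST8, a subunit of both complexes, to 0.11 for RPTOR, the scaffold of mTORC1. MTOR, the kinase itself, averaged 145 ± 9.40 CPM in LC-AI-maspin and 141 ± 8.01 CPM in LC-AI-ctrl, and RICTOR, the scaffold of mTORC2, 32.8 ± 1.72 and 33.1 ± 2.24 CPM (SD, n = 3 each). AKT1S1, which encodes the mTORC1 inhibitor PRAS40, averaged 107 ± 6.52 and 105 ± 0.910 CPM. DEPTOR, another inhibitor of mTOR, was low in this line, at 30 to 54 reads per library.

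In the amino acid branch LAMTOR1 fell and NPRL3 rose in LC-AI-maspin cells. LAMTOR1, the Ragulator subunit that anchors the complex in the lysosomal membrane, lies on chromosome 11 from 72085895 to 72103297. It had 68.7, 68.0 and 64.6 CPM in LC-AI-maspin, against 77.4, 78.7 and 81.5 CPM in LC-AI-ctrl, with no overlap. Its log2 fold change was -0.24 (SE 0.05, adjusted p = 0.00114), and with all 12 libraries in 1 fit the adjusted p was 0.0661. NPRL3, a subunit of GATOR1, had 90.6, 94.6 and 90.6 CPM in LC-AI-maspin, against 84.0, 77.2 and 85.0 CPM in LC-AI-ctrl. The rise was 0.16 on the log2 scale (SE 0.05, adjusted p = 0.0308). This was the least stable of the 8 calls, lost without LC-AI-maspin replicate 2 (0.118) or 3 (0.0872), without LC-AI-ctrl replicate 2 (0.184) or 3 (0.0561), and with all 12 libraries in 1 fit (0.197).

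The remaining members of this branch did not pass. DEPDC5 and NPRL2, the partners of NPRL3 in GATOR1, had log2 fold changes of 0.04 (SE 0.08) and 0.13 (SE 0.10). RRAGA, RRAGC and RRAGD, the Rag GTPases measured, had -0.10, 0.02 and 0.21, of which RRAGD was called with the block (adjusted p = 0.0369, against 0.14 without it). Of the S6 kinases downstream of mTORC1, RPS6KB1 averaged 28.3 ± 2.35 CPM in LC-AI-maspin and 27.8 ± 1.71 CPM in LC-AI-ctrl (SD, n = 3 each). RPS6KB2 averaged 48.5 ± 4.01 CPM in LC-AI-maspin and 53.9 ± 1.31 CPM in LC-AI-ctrl (log2 fold change -0.15, adjusted p = 0.0945, with the block 0.0139).

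FOXO1 fell in LC-AI-maspin cells, and FOXO3 and FOXO4 had positive fold changes. FOXO1, on chromosome 13 from 40555667 to 40666641, had 3.97, 4.52 and 3.79 CPM in LC-AI-maspin, against 6.13, 6.69 and 7.72 CPM in LC-AI-ctrl. These are 206 to 289 and 317 to 385 reads per library. The log2 fold change of -0.74 (SE 0.12, adjusted p = 1.08e-04) was the largest among the members and held in all 16 alternatives (adjusted p at most 0.00269). FOXO3, at 69.2, 75.5 and 68.6 CPM in LC-AI-maspin, lay above the 65.5, 64.2 and 62.6 CPM in LC-AI-ctrl in every library (log2 fold change 0.15, SE 0.05, adjusted p = 0.0642, with the block 0.00906). FOXO3B, a near copy with 781 to 1155 reads per library, was counted on its own line, and the adjusted p of FOXO3 depended on the scaling, at 0.0168 under upper-quartile scaling and 0.00829 when only library size was used. FOXO4 averaged 5.37 ± 0.338 CPM in LC-AI-maspin and 5.03 ± 0.716 CPM in LC-AI-ctrl (SD, n = 3 each).

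**Figure D2:**
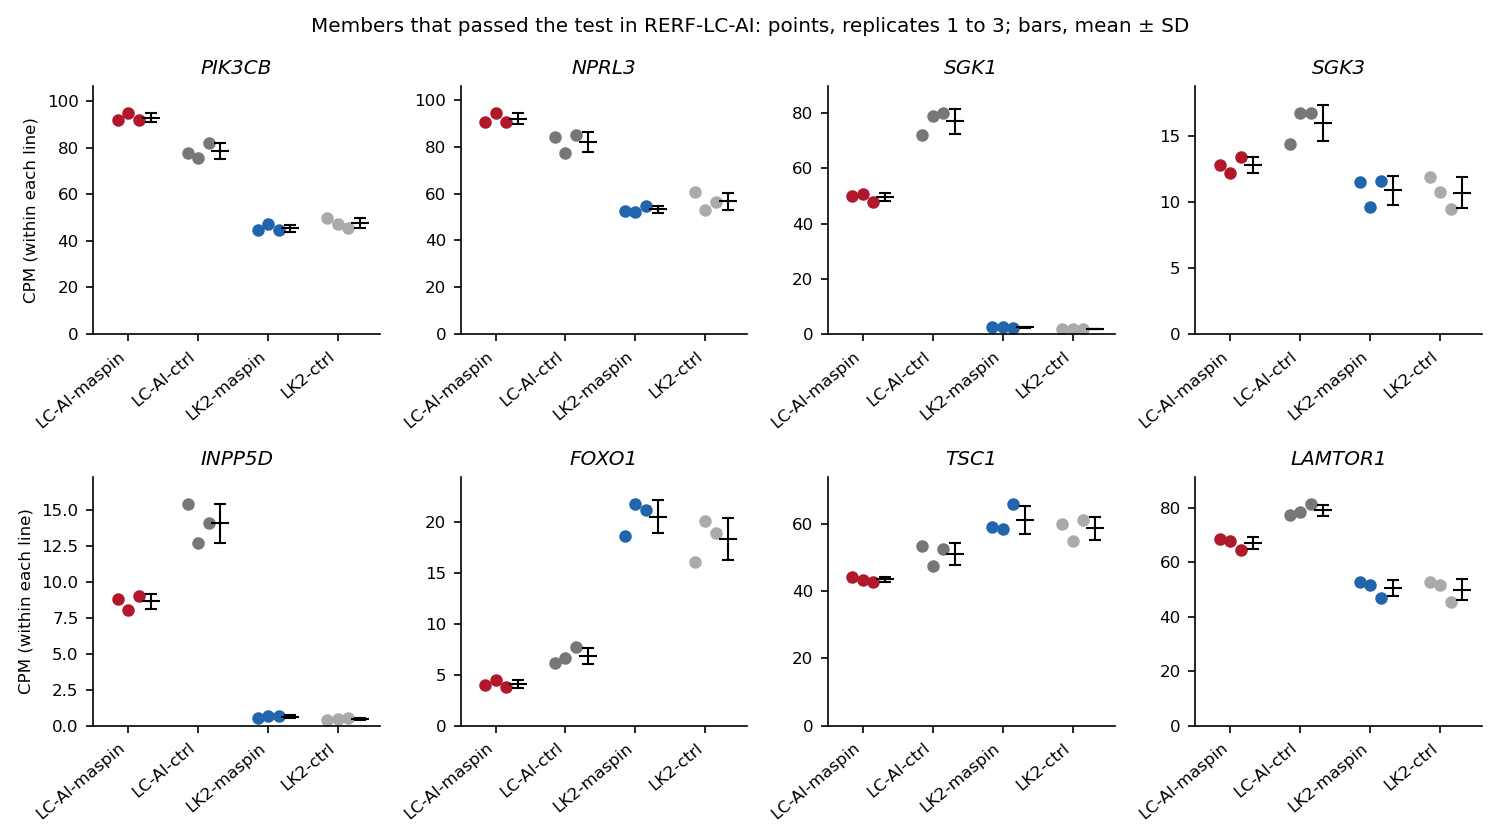
CPM (y axis, normalised within each line) in every library for the 8 members that passed the test in RERF-LC-AI cells, with the groups on the x axis and the mean ± SD beside the points. The LC-AI-maspin points of SGK1 (47.8 to 50.6 CPM) lie below those of LC-AI-ctrl (71.9 to 80.2 CPM), and both LK-2 groups lie near 0 on this scale (1.70 to 2.61 CPM).

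In LK-2 cells none of the 37 members tested passed at an adjusted p under 0.05 (background 0.373% higher and 0.16% lower, 0.533% in either direction), and 3 had an unadjusted p under 0.05. Among genes with a mean of at least 10 CPM, 0.949% were called, against none of 30 members. DESeq2 and edgeR's likelihood ratio test each called 1 member, PHLPP1. The median log2 fold change was -0.02 over the members and 0.00 over all genes tested. By level, 5 members lay above in all LK2-maspin libraries (background 6.37%) and 3 below (background 5.53%). With the replicate block 1 member was higher and 1 lower (background 4.53%).

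PHLPP1 and RHEB were these 2 members. PHLPP1, on chromosome 18 from 62715541 to 62980433, had 135, 128 and 122 CPM in LK2-maspin, against 168, 152 and 153 CPM in LK2-ctrl, with no overlap. The log2 fold change was -0.30 (SE 0.07). Its adjusted p was 0.105 in the fit without the block, 1.37e-08 with it, 0.0291 by the likelihood ratio test and 0.0318 by DESeq2. RHEB, on chromosome 7 from 151466012 to 151520120, had 103, 106 and 104 CPM in LK2-maspin, against 87.8, 96.8 and 89.9 CPM in LK2-ctrl, again with no overlap. Its log2 fold change was 0.19 (SE 0.06, adjusted p = 0.438, with the block 0.00125).

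SGK1 and FOXO4 came next in order of adjusted p. SGK1 had 2.50, 2.61 and 2.13 CPM in LK2-maspin, against 1.87, 1.70 and 1.78 CPM in LK2-ctrl (80 to 134 reads per library). The groups did not overlap (log2 fold change 0.44, SE 0.17, adjusted p = 0.662). FOXO4 had 9.58, 9.96 and 12.3 CPM in LK2-maspin, against 7.81, 8.05 and 10.2 CPM in LK2-ctrl, where each maspin library was above the ctrl library of its number. On the log2 scale FOXO4 differed by 0.29 (SE 0.14, adjusted p = 0.826, with the block 0.0831).

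**Figure D3:**
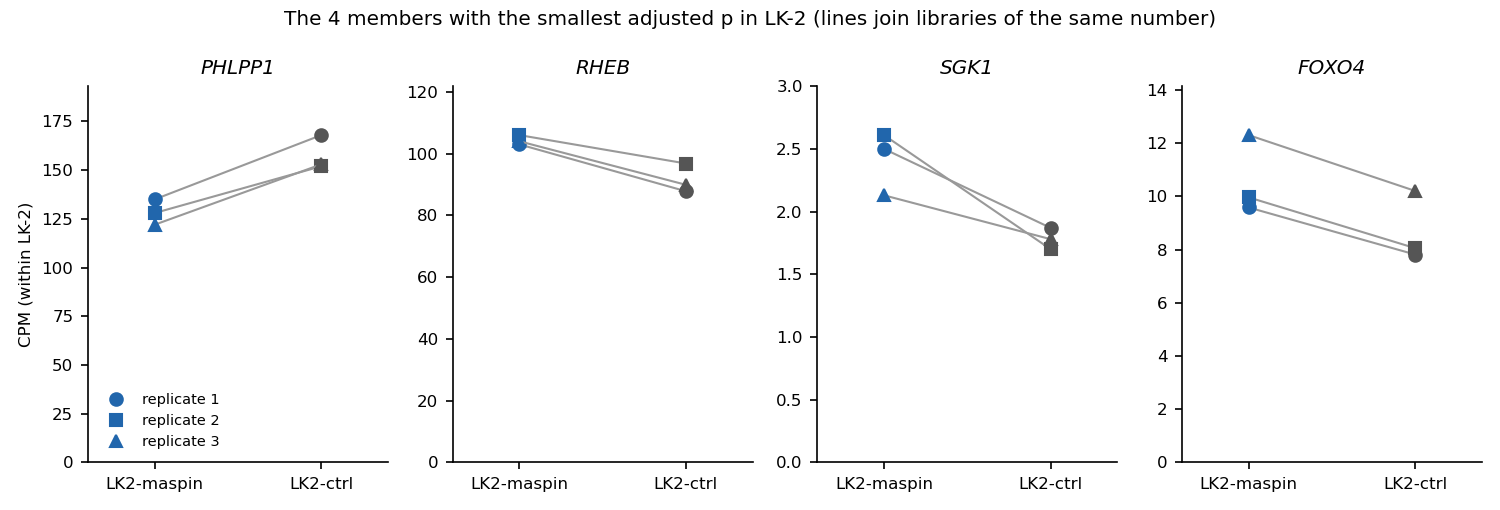
CPM (y axis) in LK2-maspin and LK2-ctrl libraries (x axis) for the 4 members with the smallest adjusted p in LK-2 cells, with lines between libraries of the same replicate number. All 3 lines of PHLPP1 are lower at LK2-maspin (122 to 135 CPM against 152 to 168 CPM), and those of RHEB, SGK1 and FOXO4 are higher there.

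The maspin effect differed between the lines for SGK1, FOXO1 and INPP5D. In the interaction test, which takes the effect in RERF-LC-AI minus that in LK-2 cells, 3 of 38 members (7.89%) were called and all 3 were lower (background 1.35% lower, 0.402% higher, 1.76% in either direction). This background is of all genes, and the share among well-expressed genes was not determined for this test. The difference was -1.07 for SGK1 (SE 0.13, adjusted p = 1.78e-04), -0.90 for FOXO1 (SE 0.16, adjusted p = 0.00466) and -1.14 for INPP5D (SE 0.24, adjusted p = 0.0157). SGK1 and FOXO1 passed in all 20 alternatives. INPP5D did not pass without LK2-ctrl replicate 2 (adjusted p = 0.0522), and it rests on 20 to 32 reads per LK-2 library. In LK-2 cells FOXO1 had 18.7, 21.8 and 21.2 CPM in LK2-maspin, against 16.1, 20.1 and 19.0 CPM in LK2-ctrl (log2 fold change 0.16, SE 0.10, adjusted p = 0.937). The background count over all genes, 113 higher and 381 lower, became 180 and 370 under upper-quartile scaling, 202 and 408 when only library size was used and 72 and 461 under RLE factors.

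RHEB and PIK3CB had the next smallest adjusted p in this test, 0.064 and 0.0875, with differences of -0.31 (SE 0.08) and 0.31 (SE 0.09). With the replicate block 3 members were higher (PIK3CB, NPRL3 and PHLPP1) and 7 lower (SGK1, FOXO1, INPP5D, RHEB, TSC1, LAMTOR1 and PIK3R3), where 8.08% of all genes were called. RHEB then had an adjusted p of 5.14e-04, PIK3CB 0.00293, TSC1 0.0089, LAMTOR1 0.0148, PIK3R3 0.0192, NPRL3 0.0199 and PHLPP1 0.0399.

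Levels of the members differed far more between the lines than between maspin and ctrl cells. In LC-AI-ctrl over LK2-ctrl, 19 members were higher (background 30.5%) and 12 lower (background 31.4%, 61.9% in either direction). This balance depended on the scaling, since 15 members were higher and 17 lower with upper-quartile factors and 16 and 17 with library size only. The members had a median log2 fold change of 0.20, against a median log2 fold change of -0.12 over all genes. SGK1 was higher by 5.64 on the log2 scale (SE 0.09), INPP5D by 5.15 (SE 0.16) and INPP4B by 4.79 (SE 0.11), and PHLPP1 was at -4.35 (SE 0.09). All 4 had adjusted p of at most 1.11e-16. PIK3CD was at 2.39 (SE 0.14), RRAGC at 1.99 (SE 0.07), DEPTOR at -2.03 (SE 0.21), PIK3R3 at -1.57 (SE 0.11), PHLPP2 at 1.44 (SE 0.07) and FOXO1 at -1.22 (SE 0.11). PIK3CA, at -0.08 (SE 0.07), TSC1, at 0.01 (SE 0.07), and RPS6KB2, at -0.03 (SE 0.07), did not pass. Upper-quartile factors and library size only shifted this comparison by -0.22 for every gene, giving 7056 higher and 11463 lower or 7053 and 11396 genes, against 8583 and 8824. Under them 2 called members, PIK3R2 (0.21) and MTOR (0.19), changed sign. The share called among well-expressed genes was not determined for this comparison. Line, medium and count table cannot be told apart here.

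Levels per length, in RPKM (CPM scaled over all 12 libraries, per kilobase of the MANE Select transcript), allow the genes to be set beside each other. RHEB had the highest mean in RERF-LC-AI cells, at 74.2 ± 2.40 RPKM in LC-AI-maspin and 80.5 ± 1.39 RPKM in LC-AI-ctrl (SD, n = 3 each), followed by LAMTOR1 at 66.2 ± 2.13 and 78.2 ± 2.07 RPKM, and in LC-AI-ctrl the libraries of these genes overlapped (78.9 to 81.6 RPKM for RHEB, 76.5 to 80.5 RPKM for LAMTOR1). AKT1S1 and AKT1 came next, at 64.9 ± 4.04 and 63.6 ± 3.12 RPKM in LC-AI-maspin, which do not differ beyond their spread. In LK-2 cells RHEB (47.4 ± 0.914 RPKM), RRAGA (44.2 ± 2.23 RPKM) and LAMTOR1 (43.1 ± 2.74 RPKM) were the 3 highest in LK2-maspin. LAMTOR1 (42.8 ± 4.15 RPKM), RRAGA (42.3 ± 1.76 RPKM), MLST8 (42.0 ± 3.86 RPKM) and RHEB (41.6 ± 2.48 RPKM) were within their spread in LK2-ctrl. The lowest members were PIK3CG and SGK2 in RERF-LC-AI cells, at 0.0923 and 0.156 RPKM in LC-AI-maspin and 0.0846 and 0.205 RPKM in LC-AI-ctrl. In LK-2 cells they were SGK2 and INPP5D, at 0.0519 and 0.118 RPKM in LK2-maspin and 0.0627 and 0.0868 RPKM in LK2-ctrl.

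Within families, the dominant gene changed between the lines for the SGK kinases and the PHLPP phosphatases. SGK1 made up 82.4 ± 1.26% of the SGK level in LC-AI-maspin and 85.3 ± 0.387% in LC-AI-ctrl, against 21.6 ± 2.86% in LK2-maspin and 17 ± 1.04% in LK2-ctrl, where SGK3 held 76.7 ± 4.87% and 80.8 ± 3.24% (SD, n = 3 each). PHLPP1 held 18.2 ± 1.52% and 17 ± 0.970% of the PHLPP level in LC-AI-maspin and LC-AI-ctrl, against 91.2 ± 0.335% and 91.9 ± 0.509% in LK2-maspin and LK2-ctrl. FOXO1 held 5.93 ± 0.285% of the FOXO level in LC-AI-maspin and 10.4 ± 1.31% in LC-AI-ctrl, and no library overlapped. FOXO3 was the main FOXO gene throughout, at 81.7 ± 0.697% in LC-AI-maspin, 77.4 ± 1.79% in LC-AI-ctrl, 64.8 ± 1.43% in LK2-maspin and 66.9 ± 1.66% in LK2-ctrl.

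PIK3CB held the largest share of the catalytic subunits in all 4 groups, at 65.4 ± 1.09% in LC-AI-maspin, 62.6 ± 1.55% in LC-AI-ctrl, 53.8 ± 2.35% in LK2-maspin and 54.1 ± 3.35% in LK2-ctrl (SD, n = 3 each). PIK3CA followed with 22.1 ± 0.444%, 23.3 ± 1.69%, 40.9 ± 2.73% and 40.6 ± 2.57% in the same order of groups. AKT1 held 71.0 ± 0.215% of the AKT1 and AKT2 level in LC-AI-maspin and 72.8 ± 0.304% in LC-AI-ctrl, where the libraries did not overlap, and 63.6 ± 0.471% in LK2-maspin and 63.8 ± 0.337% in LK2-ctrl. PIK3R2 was the main regulatory subunit and RPS6KB2 the main S6 kinase in every group (62.2% to 73.7% and 82.0% to 85.9%). These shares use 1 transcript length per gene.

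**Figure D4:**
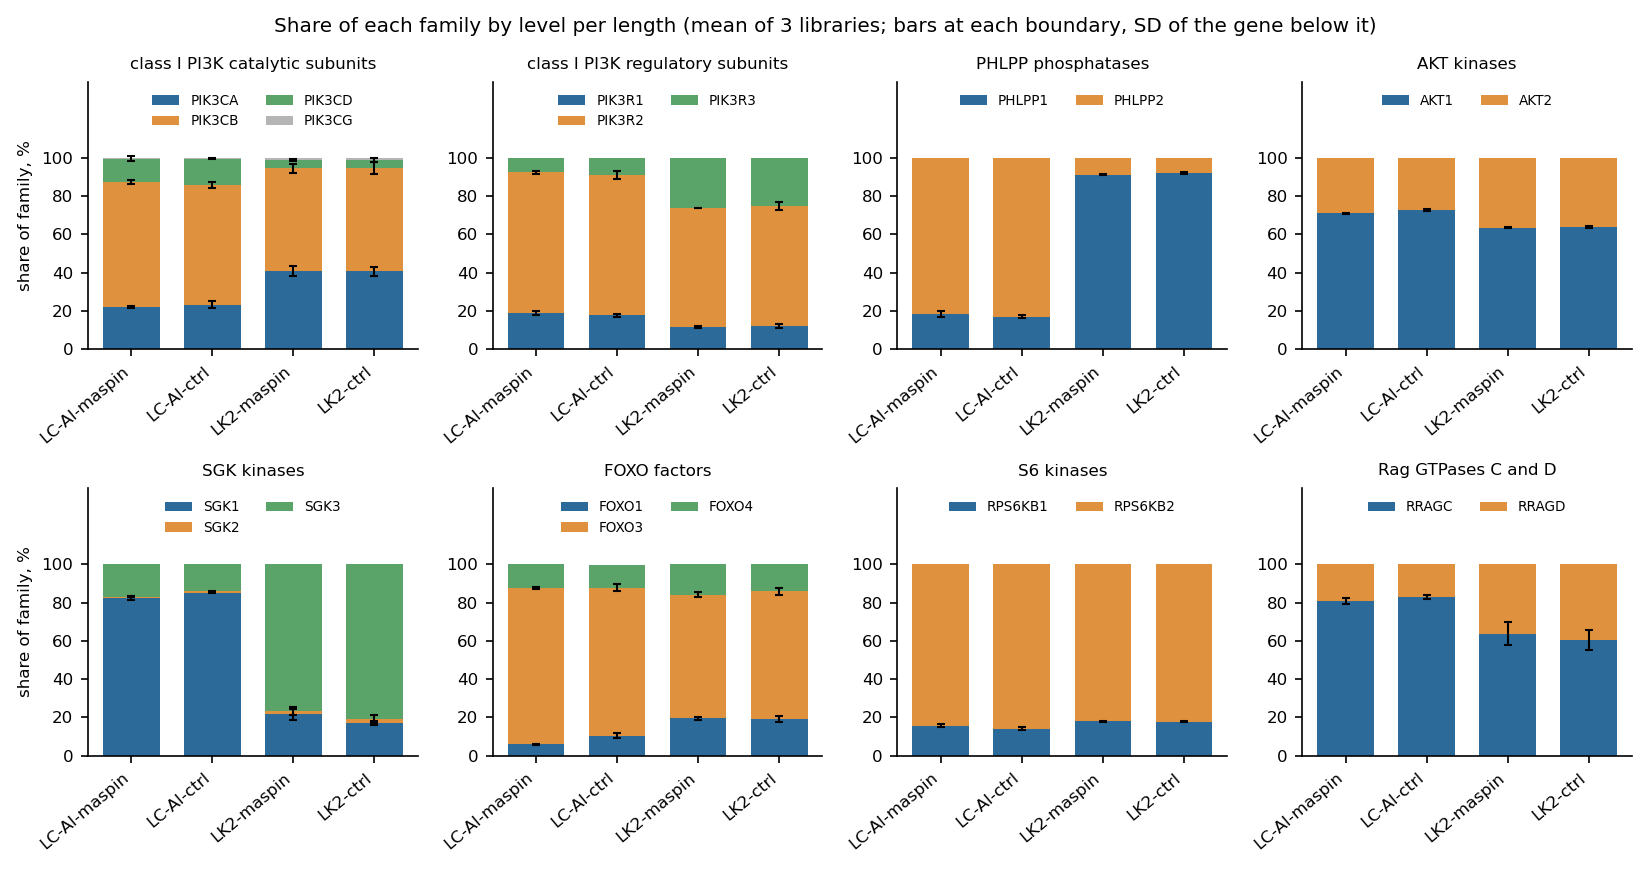
Share of the family's level per length (y axis, %) held by each gene, as the mean of 3 libraries per group (x axis), with the SD of the lower gene drawn at each boundary. SGK1 holds 82.4% and 85.3% in LC-AI-maspin and LC-AI-ctrl but 21.6% and 17% in LK2-maspin and LK2-ctrl, and PHLPP1 shows the opposite pattern.

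Beyond the 38 members, 112 genes of the same signalling network in 7 lists were measured, and all 112 were tested in both lines. In RERF-LC-AI cells 16 were higher and 12 lower, 25% in all, with a median log2 fold change of -0.01 against 0.01 over all genes. The background was 10.5% of all genes and 21.4% of genes with a mean of at least 10 CPM, and the share of the lists was near that of the well-expressed genes. In LK-2 cells none passed, against 0.533% of all genes, and 7 had an unadjusted p under 0.05. With the block 21 were higher and 17 lower in RERF-LC-AI (background 16.2%), and 4 higher and 5 lower in LK-2 cells (background 4.53%).

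DDIT4 and SESN2, which both restrain mTORC1, rose in LC-AI-maspin cells. DDIT4 (REDD1), a stress-induced inhibitor acting through the TSC complex, had 258, 287 and 263 CPM in LC-AI-maspin, against 190, 155 and 158 CPM in LC-AI-ctrl (log2 fold change 0.68, SE 0.06, adjusted p = 2.74e-09). SESN2, the leucine sensor, had 84.4, 101 and 81.8 CPM in LC-AI-maspin, against 64.5, 59.9 and 53.0 CPM in LC-AI-ctrl (0.59, SE 0.07, adjusted p = 3.31e-07). Neither gene had overlapping groups. In LK-2 cells DDIT4 varied strongly with the replicate number, at 6.48, 12.1 and 19.4 CPM in LK2-maspin and 4.10, 7.20 and 16.2 CPM in LK2-ctrl, and was called only with the block (log2 fold change 0.47, adjusted p = 0.996 without and 5.81e-05 with it). Neither difference between the lines passed the interaction test, at 0.20 for DDIT4 (adjusted p = 0.918) and 0.29 for SESN2 (adjusted p = 0.415).

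Of 25 mTORC1 targets and regulators, 5 rose and none fell in RERF-LC-AI cells, which for either direction is near the share among well-expressed genes given above. Besides DDIT4 they included ULK1, the autophagy kinase (0.34, adjusted p = 1.87e-04), PDCD4, an inhibitor of translation (0.25, adjusted p = 0.00639), and LPIN1, a phosphatidate phosphatase (0.19, adjusted p = 0.00889). The median of the list was -0.01, and the other 20 genes did not pass. With the block 7 rose and none fell, among them EIF4EBP1, which encodes the translation repressor 4E-BP1 (0.15, adjusted p = 0.0544 without and 0.0063 with the block), and the transcription factor MITF (0.30, 0.0617 without and 0.0142 with it). Of 23 other nutrient sensing genes, 3 rose and 3 fell, among them SESN2, SEC13, a GATOR2 and coat protein (0.28, adjusted p = 2.1e-04), MIOS, another GATOR2 subunit (-0.20, adjusted p = 0.0108), and the Ragulator gene LAMTOR2 (-0.20, adjusted p = 0.0186). Of 7 other mTOR complex genes, the mTORC2 subunits MAPKAP1 (SIN1; -0.31, adjusted p = 3.95e-05) and PRR5L (-0.61, adjusted p = 0.017) fell.

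Among 11 AKT and SGK substrates, 2 rose and 2 fell. NDRG1, a classical SGK1 substrate, had 37.4, 32.3 and 33.5 CPM in LC-AI-maspin, against 50.7, 42.1 and 46.6 CPM in LC-AI-ctrl (log2 fold change -0.43, SE 0.07, adjusted p = 2.53e-05). BAD, which promotes apoptosis, fell (-0.21, adjusted p = 0.0166), while GSK3B, a kinase inhibited by AKT, rose (0.17, adjusted p = 0.0231). TSC22D3 (GILZ), better known as a glucocorticoid-induced regulator of transcription than as a substrate, had 30.7, 30.2 and 33.7 CPM in LC-AI-maspin, against 26.2, 22.5 and 23.6 CPM in LC-AI-ctrl (0.39, SE 0.07, adjusted p = 1.68e-04). Of 12 other PI3K genes, PIK3R4 (VPS15; 0.31, adjusted p = 2e-04) and the class II kinase PIK3C2A (0.15, adjusted p = 0.0438) rose and the docking protein GAB2 fell (-0.27, adjusted p = 0.0285). Of 11 other phosphoinositide phosphatases, INPPL1 (SHIP2; -0.25, adjusted p = 0.00103) and INPP5E (-0.26, adjusted p = 0.0323) fell.

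Of 23 FOXO target genes, 4 rose and 2 fell in RERF-LC-AI cells, or 26.1%, beside the 10.5% of all genes and 21.4% of well-expressed genes called. With the block 6 rose and 5 fell. CCND2, which encodes cyclin D2, had 37.3, 36.1 and 36.1 CPM in LC-AI-maspin, against 13.4, 12.1 and 10.3 CPM in LC-AI-ctrl (log2 fold change 1.61, SE 0.08, adjusted p = 3.74e-15). CAT, the catalase gene, rose (0.34, adjusted p = 0.00128). CITED2, a transcriptional co-regulator, fell to 252, 300.0 and 303 CPM in LC-AI-maspin, against 402, 393 and 462 CPM in LC-AI-ctrl (-0.55, SE 0.06, adjusted p = 1.68e-07). TXNIP, the thioredoxin-interacting protein, had 61.4, 43.1 and 40.8 CPM in LC-AI-maspin, against 67.5, 68.2 and 69.7 CPM in LC-AI-ctrl (-0.50, SE 0.09, adjusted p = 1.42e-04).

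In LK-2 cells the smallest adjusted p of any listed gene was 0.0781, for INPP5F, a phosphatase of PI(4)P. It had 24.3, 21.8 and 21.4 CPM in LK2-maspin, against 36.6, 32.6 and 27.0 CPM in LK2-ctrl, or -0.51 on the log2 scale (SE 0.11, with the block adjusted p = 4.41e-09). GADD45A, a growth arrest gene and FOXO target, was the 1 of 112 listed genes that passed the interaction test without the block. It rose in RERF-LC-AI cells, with 44.3, 37.6 and 37.8 CPM in LC-AI-maspin against 35.7, 30.9 and 30.2 CPM in LC-AI-ctrl (log2 fold change 0.30, adjusted p = 0.003). It had 118, 95.9 and 97.9 CPM in LK2-maspin against 128, 132 and 126 CPM in LK2-ctrl (-0.31, adjusted p = 0.206, with the block 8.72e-08). The difference was 0.61 (SE 0.12, adjusted p = 0.00993). With the block 8 listed genes were higher and 8 lower in this test (background 8.08%). Those lower included TXNIP (difference -0.79, adjusted p = 0.148 without and 3.88e-07 with the block), NDRG1 (-1.13, 0.313 and 1.62e-06), CITED2 (-0.53, 0.0588 and 4.75e-06) and MAPKAP1 (-0.38, 0.0571 and 2.96e-05). Besides GADD45A, those higher included PIK3R4 (0.37, 0.064 and 5.95e-04), SEC13 (0.29, 0.251 and 0.00247) and INPP5F (0.43, 0.15 and 0.00269).

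**Figure D5:**
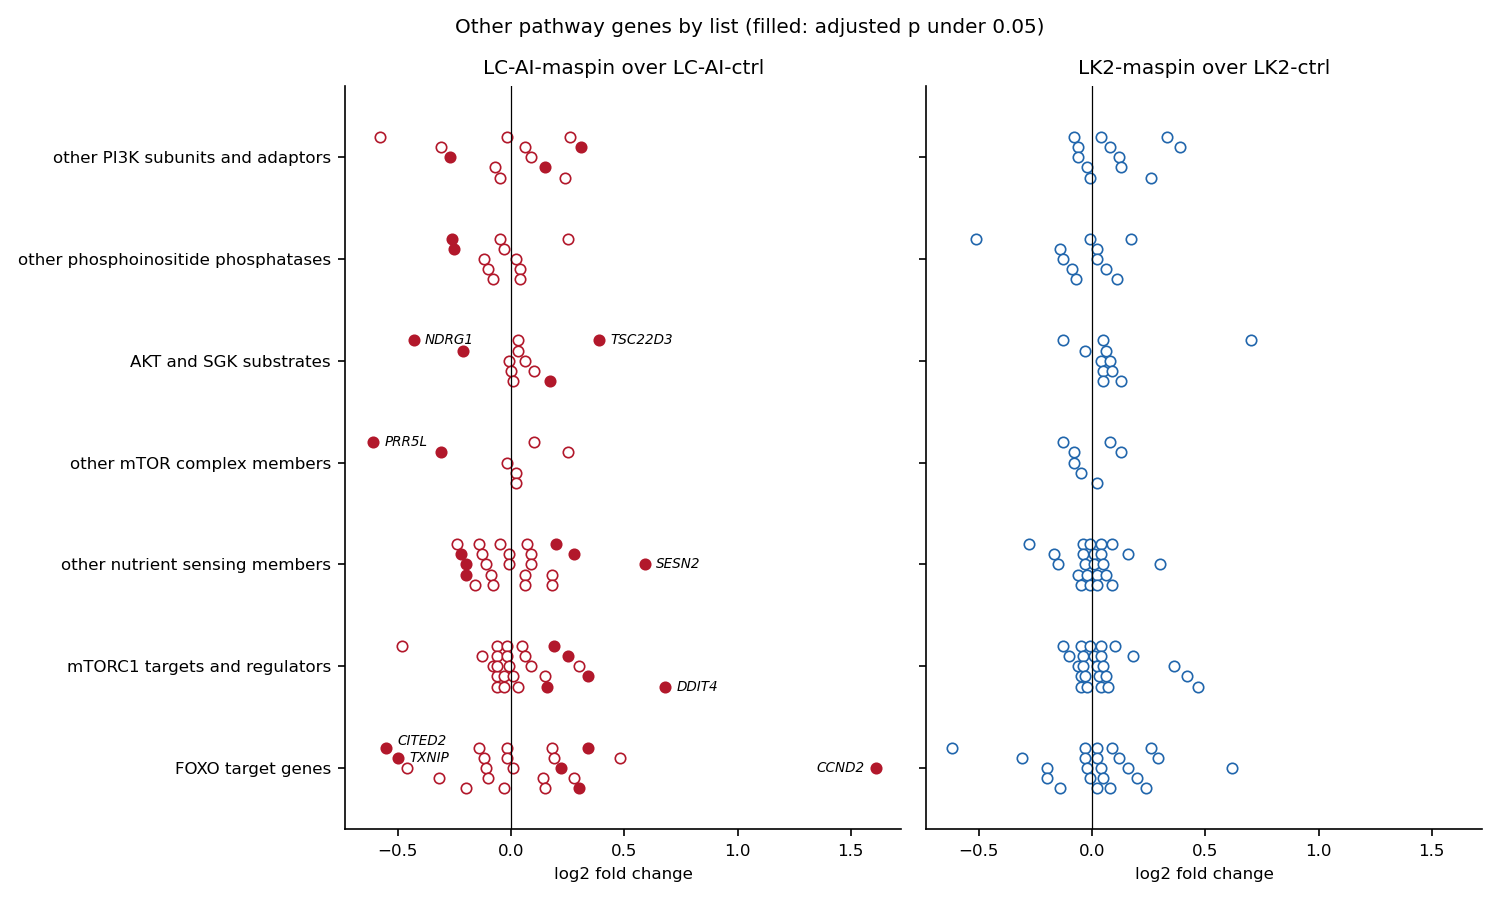
Maspin effect as log2 fold change (x axis) for 112 other genes of the network in 7 lists (y axis), in RERF-LC-AI cells on the left and LK-2 cells on the right, with filled points for an adjusted p under 0.05. In RERF-LC-AI cells 28 points are filled, the farthest being CCND2 at 1.61, and in LK-2 cells none is.

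Several lists of cell type markers did not overlap between maspin and ctrl cells. Summed over EPCAM, CDH1, KRT8, KRT18 and KRT19, all 5 at or above 1 CPM in every group, the epithelial markers reached 1540 to 1660 CPM in LC-AI-maspin and 2100 to 2230 CPM in LC-AI-ctrl, and 1900 to 1970 CPM in LK2-maspin and 1700 to 1770 CPM in LK2-ctrl. CDH1 alone went the other way in LK-2 cells, at 104 CPM in LK2-maspin and 115 CPM in LK2-ctrl. In RERF-LC-AI cells the sum was nearly all KRT8, KRT18 and KRT19. EPCAM (4.91 CPM in LC-AI-maspin, 5.42 CPM in LC-AI-ctrl) and CDH1 (2.26 and 2.96 CPM) were low there. EPCAM averaged 549 CPM in LK2-maspin and 536 CPM in LK2-ctrl. The 4 fibroblast markers, of which 2 were at or above 1 CPM, summed to 9.58 to 11.3 CPM in LC-AI-maspin and 13.1 to 16.8 CPM in LC-AI-ctrl, with the receptor gene PDGFRB at 2.84 and 8.54 CPM, while the other 3 had higher means in LC-AI-maspin (COL1A1 6.92 and 6.33 CPM, DCN 0.621 and 0.436 CPM, LUM 0.0936 and 0.0277 CPM). The 3 endothelial markers summed to 2.94 to 3.25 CPM in LC-AI-maspin and 2.13 to 2.76 CPM in LC-AI-ctrl, and to 4.48 to 4.91 CPM in LK2-maspin and 5.20 to 6.32 CPM in LK2-ctrl. In RERF-LC-AI cells only PECAM1 was higher, at 2.37 CPM in LC-AI-maspin and 1.66 CPM in LC-AI-ctrl. CDH5 (0.17 and 0.193 CPM) and KDR (0.581 and 0.606 CPM) had lower means in LC-AI-maspin. The 5 leukocyte markers, of which 2 were at or above 1 CPM, summed to 46.5 to 50.6 CPM in LC-AI-maspin and 49.8 to 50.6 CPM in LC-AI-ctrl, nearly all of it CD68, so that these groups overlapped. In LK-2 cells the 12 squamous markers summed to 499 to 553 CPM in LK2-maspin and 582 to 654 CPM in LK2-ctrl, most of it SOX2. KRT5 (6.91 and 0.727 CPM), KRT6A (2.47 and 1.26 CPM) and DSG3 (7.02 and 4.71 CPM) had higher means in LK2-maspin, where KRT14 was at 0 reads (0.0366 CPM in LK2-ctrl). The 5 neuroendocrine markers summed to 25.3 to 26.8 CPM in LK2-maspin and 28.6 to 33.5 CPM in LK2-ctrl, with INSM1 at 24.3 and 29.1 CPM. NEUROD1 (1.01 and 0.907 CPM), CHGA (0.31 and 0.203 CPM) and SYP (0.307 and 0.227 CPM) had higher means in LK2-maspin. The 4 lung adenocarcinoma markers summed to 6.06 to 6.97 and 7.42 to 8.02 CPM, with NKX2-1 at 4.6 and 6.01 CPM. SFTPB (1.62 and 1.47 CPM) and SFTPC (0.32 and 0.114 CPM) had higher means in LK2-maspin. The part of these differences in the members' changes was not tested.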

How the data were processed

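Poly(A) RNA of 12 samples, 3 in each of 4 groups, was sequenced on an Illumina NovaSeq system. The authors used Trimmomatic (ver. 0.39) for trimming, BWA (ver. 0.7.17) for mapping against GRCh38.p13, and SAMtools (ver. 1.10 for RERF-LC-AI, ver. 1.12 for LK-2). A table of raw counts of mapped reads per gene was deposited for each line. The sources used here do not give how reads were assigned to genes, nor whether strand was used, so that reads of overlapping antisense genes may not be separated. The deposited signal columns, which the authors scaled by library total or by TMM with edgeR (ver. 3.16.5), were not used. Lines without a gene symbol (646, holding 0.292% to 0.416% of a library's counts) were left out. Among counts from 1 to 9, 23.9% to 26.2% were odd, so most count both reads of a pair.

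The raw counts were tested with edgeR 4.0.16 (quasi-likelihood F test, TMM, default filter with a minimum count of 10 and total of 15) in R 4.3.3, within each line, and in 1 fit of all 12 libraries for the difference between the lines and for ctrl cells. The study's own test was a likelihood ratio test, which is an alternative here. The SE is the log2 fold change over the square root of F. Other alternatives were scaling by library size only, by upper quartiles or by RLE, DESeq2 1.42.0, other filters, an adjusted p under 0.01, the replicate number as a block, and leaving out each library. Adding the lines of read-through transcripts and near copies to SGK3, PIK3R3 and FOXO3 was chosen after seeing the data. Scripts were tested on simulated data. The members and the 7 lists (114 genes, 112 of them in the tables) were chosen with earlier results of these data known. Values in every library are given for members that passed in either line or in the difference between lines and for the 4 with the smallest adjusted p in LK-2 cells, and up to 4 genes per list are named by adjusted p in either line. Other members with values were added after these had been seen.

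The fits behind the calls have no replicate block. The fit with the block is given beside them where it changes a call, since libraries of the same number passed the rule for pairing: their deviations from the group means correlated over genes with a mean log2 CPM over 3 in every pair (0.369, 0.390 and 0.203 in RERF-LC-AI, 0.744, 0.113 and 0.750 in LK-2). Over all genes tested these were 0.0437, 0.0533 and 0.00167, and 0.154, 0.0144 and 0.164, and the labels do not say what a number shares. The 0.113 of the LK-2 pair numbered 2 was below a pair of unlike number. LK2-maspin replicate 1 and LK2-ctrl replicate 2 correlated at 0.18 over genes with a mean log2 CPM over 3. Libraries of a group differed by more than counting noise (chi-square per degree of freedom of at least 4.70). This value was computed on read counts, and counting both reads of a pair adds to it, which was not corrected for. Positions and lengths are from GENCODE 44, and promoters from RefSeq. Tables were handled in pandas 2.3.3 and figures in matplotlib 3.10.9 (Python 3.11.15).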

Additional observations from a re-analysis of the deposited data

Results flagged for a closer look

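For 3 members the maspin effect differed between RERF-LC-AI and LK-2 cells by the interaction test of edgeR. For SGK1 the effect in RERF-LC-AI minus that in LK-2 cells was -1.07 on the log2 scale (SE 0.13, adjusted p = 1.78e-04). All 3 LC-AI-maspin libraries were below LC-AI-ctrl (background 13.2%) and all 3 LK2-maspin libraries above LK2-ctrl (background 6.37%). For INPP5D the difference was -1.14 (SE 0.24, adjusted p = 0.0157), with the same order of libraries. Within LK-2 cells neither rise passed the quasi-likelihood F test (adjusted p = 0.662 for SGK1, 0.972 for INPP5D). These LK-2 values rest on 80 to 134 reads per library for SGK1 and 20 to 32 for INPP5D. For FOXO1 the difference was -0.90 (SE 0.16, adjusted p = 0.00466), with all LC-AI-maspin libraries below LC-AI-ctrl and overlapping groups in LK-2 cells. Line, medium, maspin level and the location of maspin in the cell cannot be told apart in these differences.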

How the results depend on the processing

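The 8 members called in RERF-LC-AI cells kept their call in 124 of 136 cases, each a member under 1 alternative, and lost it in 12, all in the same direction, and the 3 called between the lines kept it in 61 of 63. These cases count the stricter threshold of 0.01 as an alternative beside the 16 and 20 at 0.05. In RERF-LC-AI cells 2 members were higher and 6 lower. An adjusted p under 0.01 left 1 higher, the replicate block gave 4 higher and 11 lower, a joint fit of all libraries 1 higher and 3 lower, and leaving out each library gave 1 to 2 higher and 4 to 7 lower. Over all genes, 2655 calls became 1642 under 0.01, 4081 with the block, 1163 in 1 fit of all libraries and 1764 to 2594 when a library was left out. In LK-2 cells 1 member was lower by the likelihood ratio test and 1 by DESeq2, and the block gave 1 higher and 1 lower. The 140 calls over all genes became 70 under 0.01, 314 by the likelihood ratio test, 280 by DESeq2, 1190 with the block, 251 in 1 fit and 50 (without LK2-ctrl replicate 2) to 199 (without LK2-ctrl replicate 3). In the difference between the lines, 1 member was higher with upper-quartile factors, with library size only and by the likelihood ratio test and 3 with the block, and 5 were lower by DESeq2 and 7 with the block. The 494 calls over all genes became 196 under 0.01, 884 by the likelihood ratio test, 985 by DESeq2, 2273 with the block and 275 to 754 when a library was left out. The causes were not tested, and the block changed the call of no member other than those named with it. Adding read-through and copy lines changed no member's call in either line. The INPP5D, SGK1 and SGK2 values in LK-2 cells rest on 1 to 134 reads, where only large changes could be found.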
